A study of Mus musculus with 22 samples.

Results

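The 1815 autosomal H3K27me3 regions described here had a peak in neuroepithelial cells (NEC) and in none of 4 later cell types of the mouse neocortex. They were chosen by joining the peaks of 5 H3K27me3 lists that shared at least 1 bp, which gave 13700 regions, 9836 of them on chromosomes 1 to 19. The 1815 are 18.5% of these 9836, a share that the rule itself sets. A region was kept when it overlapped a NEC peak, overlapped no peak of another cell type and held no peak of 10000 bp or more. All cells came from C57BL/6JOlaHsd mouse embryos, and the labels name no allele or treatment. NEC were taken at E9.5, E standing for embryonic day. The 4 later types were taken at E14.5: neurons (N), basal radial glia (bRG), and apical radial glia that were either neurogenic (aRG-N) or proliferative (aRG-P). Purified cells were immunoprecipitated for H3K4me3 or H3K27me3, with 2 samples per cell type and mark, and the 2 aRG-N H3K27me3 samples are labelled as technical replicates. Age and cell type change together between NEC and the other 4 groups and cannot be told apart here. Each list was called on combined samples, so no value has a spread between replicates. No difference between lists or between kinds of region was tested, and all such differences are descriptions.

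H3K27me3 is written by Polycomb repressive complex 2 and is found over genes that a cell keeps silent, many of them regulators of development. H3K4me3 sits at active promoters and also at promoters that carry H3K27me3 without being transcribed, a combination known as bivalent. Neuroepithelial cells are the founder progenitors of the neocortex. They turn into apical radial glia, which give rise to basal progenitors and neurons. Since the rule used H3K27me3, the H3K4me3 lists were the measurement independent of it. The H3K27me3 values below describe the chosen regions and are not evidence that the mark was lost.

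The lists differed in ways that touch the choice of regions. On the autosomes NEC had 5798 H3K27me3 peaks, while N had 5448, bRG 3387, aRG-N 6165 and aRG-P 4634. The lowest first score in the H3K27me3 lists was 13.3 in NEC and between 13.2 and 15.8 in the other 4. Skipped peak numbers show that 26.5 to 36.6% of the H3K27me3 calls, 30.9% in NEC, have no entry in the lists analysed here. For H3K4me3 this was 8.63 to 17.8%, the highest being NEC. With all 5 H3K27me3 lists cut to the same length, 732 regions met the rule in place of 1815. The cut was made over all chromosomes, where NEC had 9460 peaks and bRG 3476, so the autosomal parts need not be equal. Read depth is unknown. Positions are 1-based in build mm9. Gene names were not assigned and the sorted cells were not checked against marker genes, because the gene table used here is of another build.

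The regions of NEC alone were short and low-scoring for the NEC list. Each consisted of a single NEC peak. Their width ranged from 292 to 9885 bp with a median of 1112 bp, and the quartiles lay at 614 and 1950 bp. The 3297 NEC regions that met the same width limit and overlapped at least 1 E14.5 list had a median width of 3904 bp. Their width is that of the joined region, which also spans the E14.5 peaks, so the medians are not of like intervals. The first of the 3 scores that the authors' peak caller gave had a median of 16.9 in the regions of NEC alone and of 26.1 in the shared ones. A score of 16.9 is at percentile 25.9 of the autosomal NEC peaks, and 328 of the 1815 exceeded the median autosomal NEC peak. Together they made up 31.3% of autosomal NEC peaks and 13.3% of their length, 2748 of 20707 kb.

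Width and score divided the NEC regions steeply. Of NEC regions below 500 bp, 96.4% (323 of 335, 95% exact binomial interval 93.8 to 98.1%) were in NEC alone. This share was 56.5% (53.3 to 59.6%) between 1000 and 2000 bp and 3.87% (2.81 to 5.20%) between 5000 and 10000 bp. By score it was 70.4% (66.9 to 73.7%) below 15 and 1.24% (0.339 to 3.15%, 4 of 322) from 50 upwards. These intervals, like those that follow, cover counting error only. A wider region has more positions at which a peak of another list can meet it, and joining with such a peak can widen the region. The gradient with width is thus in part set by the rule.

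**Figure D1:**
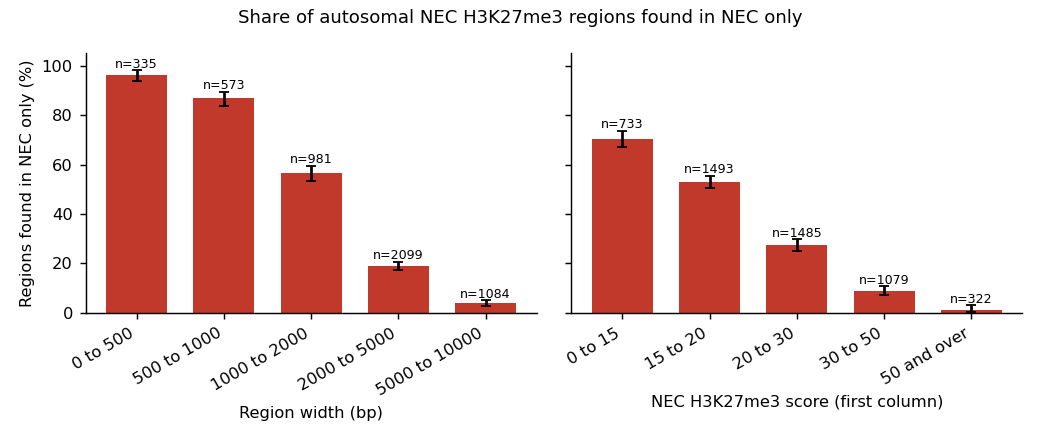
Percent of autosomal NEC H3K27me3 regions made of peaks below 10000 bp that were found in NEC alone, by region width (left, in bp) and by the first NEC H3K27me3 score (right). Bars are percentages, error bars exact 95% binomial intervals and n the regions per bin. Width is that of the joined region. The share falls from 96.4% below 500 bp to 3.87% at 5000 to 10000 bp.

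The longest regions differed in their H3K4me3. The longest, on chromosome 3 from 89677765 to 89687649 (9885 bp), had a NEC score of 22.5 and no H3K4me3 in any list. On chromosome 10, the region from 126943679 to 126952730 (9052 bp) had a score of 50.6 and H3K4me3 in NEC alone, at a fold enrichment of 15.1. The third, on chromosome 10 from 80862889 to 80871630 (8742 bp), again lacked H3K4me3 everywhere. The next 3 in length carried H3K4me3 in all 5 lists. Chromosome 12 held 2 of them, at 109238093 to 109246508 (8416 bp) and 99810223 to 99817676 (7454 bp), and chromosome 13 the other, at 51942182 to 51949810 (7629 bp). The nearest E14.5 H3K27me3 peak was 298, 158 and 278 kb from these 3, respectively. The 3 regions just above the width limit measured 10083, 10148 and 10287 bp, and in all 13 NEC-only regions exceeded it.

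The highest scores belonged to regions of both kinds, with and without H3K4me3. At 65.5 and 61.7, the top 2 lay on chromosome 17 from 56648118 to 56655180 and on chromosome 4 from 119937895 to 119944198. Neither had H3K4me3 in any cell type. The next, on chromosome 2 from 173097585 to 173104294, scored 55.4. Its H3K4me3 fold enrichment, a ratio to background from the authors' peak caller, was 21.2 in NEC and between 10.5 (N) and 17.1 (aRG-N) at E14.5. It was thus listed with H3K4me3 in every cell type, while its H3K27me3 peak was in the NEC list alone. A region on chromosome 16 from 67618074 to 67620486 (score 48.1) and one on chromosome 18 from 23195532 to 23199825 (score 47.0) also had H3K4me3 in all 5 lists. Their nearest E14.5 H3K27me3 peaks were 1800.3 and 694 kb away. Fold enrichments of different lists depend on each list's background and do not measure a change.

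H3K4me3 was either found in all cell types or in none at most of the regions, as it was at most autosomal H3K27me3 regions. Of the 1815, 982 (54.1%, 51.8 to 56.4%) overlapped no H3K4me3 peak in any list, against 56.5% of all 9836 autosomal H3K27me3 regions. Another 542 (29.9%, 27.8 to 32.0%) overlapped H3K4me3 in all 5 lists, against 24.2% of all autosomal regions. The remaining 291 (16.0%, against 19.3% of all autosomal regions) showed 26 other combinations. Which of both ends was larger depended on how regions and overlaps were counted. The H3K27me3 lists cut to equal length gave another set, of 732 regions, of which 29.8% had no H3K4me3 and 50.3% had it in all 5 lists. How many of the 732 are among the 1815 was not counted. When H3K4me3 within 1 kb of the 1815 counted as overlap, the shares were 37.5 and 51.6%. Regions with H3K4me3 in all 5 lists had a median width of 1731 bp and a median score of 19.4, and those with none 892 bp and 15.8.

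Within single lists, 792 regions had H3K4me3 in NEC (43.6%, 41.3 to 46.0%), close to the 42.7% of all autosomal H3K27me3 regions. For N the mark was at 654 regions (36.0%, background 29.6%), for bRG at 623 (34.3%, background 28.6%), for aRG-N at 674 (37.1%, background 32.6%) and for aRG-P at 606 (33.4%, background 29.0%). The share was thus above the background in each E14.5 list and close to it in NEC under this count. The NEC share moved to 67.3% with H3K27me3 lists of equal length and to 28.8% when overlap had to reach 50% of the shorter interval, and the background was not recounted there. NEC regions shared with E14.5 had H3K4me3 in a larger share, at 75.8% (74.3 to 77.2%) in NEC and 50.6 to 57.7% in the E14.5 lists. Among H3K27me3 regions found in a single E14.5 list, the share with H3K4me3 of their own cell type was below 43.6% in all 4 cases. It was 0.536% for the 560 regions of aRG-P alone and 20.8% for the 106 of bRG alone. It was 1.36% (0.834 to 2.09%) for the 1469 regions of aRG-N alone and 12.2% for the 920 regions of N alone. Their median widths, 887 and 845 bp, were below the 1112 bp of the regions of NEC alone. Overlap of 2 lists made from many cells does not place both marks on the same chromosome copy.

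**Figure D2:**
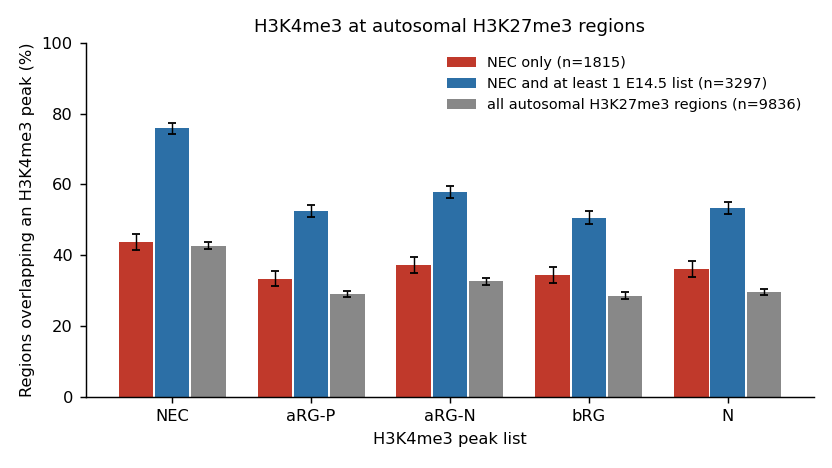
Percent of autosomal H3K27me3 regions overlapping an H3K4me3 peak of each cell type, for regions of NEC alone, NEC regions shared with at least 1 E14.5 list and all autosomal regions. Error bars are exact 95% binomial intervals over regions. Regions of NEC alone lie near all regions in NEC (43.6 and 42.7%) and below the shared NEC regions in every list.

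The gap to the shared regions was compared within classes of region width. For shared regions this is the width of the joined NEC and E14.5 peaks, not of the NEC peak alone. Among regions of 500 to 1000 bp, NEC H3K4me3 was at 32.8% (28.7 to 37.1%) of those in NEC alone and at 46.1% (34.5 to 57.9%) of the 76 shared ones. At 1000 to 2000 bp the shares were 46.4% (42.2 to 50.6%) and 64.2% (59.4 to 68.7%). Between 2000 and 5000 bp they were 65.4% (60.5 to 70.1%) and 76.8% (74.7 to 78.8%). The regions of NEC alone thus stayed below the shared ones at each of these widths, with overlapping intervals only in the first. For H3K4me3 in all 5 lists the order turned at 2000 to 5000 bp, where the shares were 53.9% (48.9 to 58.9%) and 45.4% (43.0 to 47.8%). By score the order turned in 1 class, 30 to 50, with 61.9% (51.4 to 71.5%, 97 regions) and 51.0% (47.8 to 54.2%). The regions of NEC alone were below the shared ones at scores under 15 (15.9 and 27.2%), 15 to 20 (26.3 and 32.1%), 20 to 30 (46.9 and 49.9%) and from 50 upwards (1 of 4 regions, and 37.4%). None of these gaps was tested.

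The place of the regions relative to NEC H3K4me3 summits was recorded next. Of the 792 with NEC H3K4me3, 403 (50.9%, 47.3 to 54.4%) held the summit of the H3K4me3 peak. Of the shared NEC regions with NEC H3K4me3, 90.2% (89.0 to 91.4%) did. For shared regions this means inside the joined region, parts of which may have H3K27me3 at E14.5 alone. A further 329 regions of NEC alone (18.1%) met no NEC H3K4me3 peak but lay within 1 kb of one, against 1.97% (1.52 to 2.51%) of the shared regions. In total 617 regions of NEC alone (34.0%) had no NEC H3K4me3 peak within 5 kb, against 19.4% of the shared regions.

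The placement differed with width. Below 500 bp, 5.88% of the regions of NEC alone held a NEC H3K4me3 summit, 20.4% overlapped a peak without its summit, 31.6% lay within 1 kb of one and 36.2% had none within 5 kb. At 2000 to 5000 bp 53.4% (48.4 to 58.4%) held a summit, against 70.2% (68.0 to 72.4%) of shared regions of that width. Among regions of 1000 to 2000 bp with NEC H3K4me3, the summit was inside 41.6% (35.5 to 47.9%) of those in NEC alone and 68.6% (62.8 to 74.1%) of the shared ones. At 500 to 1000 bp these shares were close, 23.3% (17.1 to 30.6%) and 28.6% (14.6 to 46.3%, 35 regions), and at 2000 to 5000 bp they were 81.6% (76.4 to 86.1%) and 91.5% (89.8 to 93.0%). Below 500 bp they were 22.4% (19 of 85 regions) and 83.3% (5 of 6 regions). The intervals thus overlapped at 500 to 1000 bp and not at 1000 to 5000 bp. From 5000 to 10000 bp all 26 regions of NEC alone with NEC H3K4me3 held a summit, as did 97.5% of the shared ones. At 56 NEC H3K4me3 peaks a region of NEC alone lay on each side of the summit, overlapping the peak or within 1 kb of it, which involved 110 regions.

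**Figure D3:**
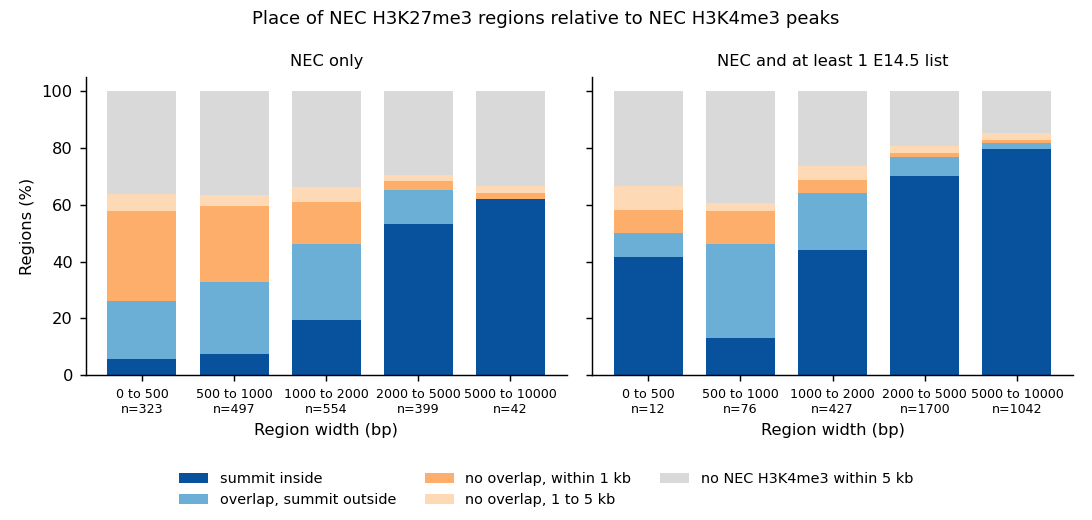
Place of NEC H3K27me3 regions relative to NEC H3K4me3 peaks, by region width in bp, for regions of NEC alone (left) and regions shared with E14.5 (right). Stacked bars give percent of regions and n is the number per width class. Shared regions are joined NEC and E14.5 peaks. The 40 shared regions of 10000 bp or more are not drawn. Below 500 bp, 5.88% of the regions of NEC alone hold an H3K4me3 summit, and 53.4% do at 2000 to 5000 bp.

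Averaged over regions, NEC H3K4me3 coverage was nearly level around the centres of the regions of NEC alone. It was 21.5% at the centre and between 19.7 and 23.8% at all positions within 1 kb, with no maximum at the centre. The highest values were 22.8% on one side and 23.8% on the other. In the shared NEC regions coverage was highest around the centre, at 38.0%, and was 19.2 to 19.4% at 1000 bp on either side. Their centres are those of the joined regions, not of the NEC peaks alone. At 1000 bp from the centre, 24.3% of the regions of NEC alone were covered by a NEC H3K27me3 peak. The E14.5 lists followed the NEC profile closely around the regions of NEC alone, with 17.0% (aRG-P) to 20.2% (aRG-N) at the centre. Around the shared regions they covered 17.3 to 21.8% of centres, well below the 38.0% of NEC.

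**Figure D4:**
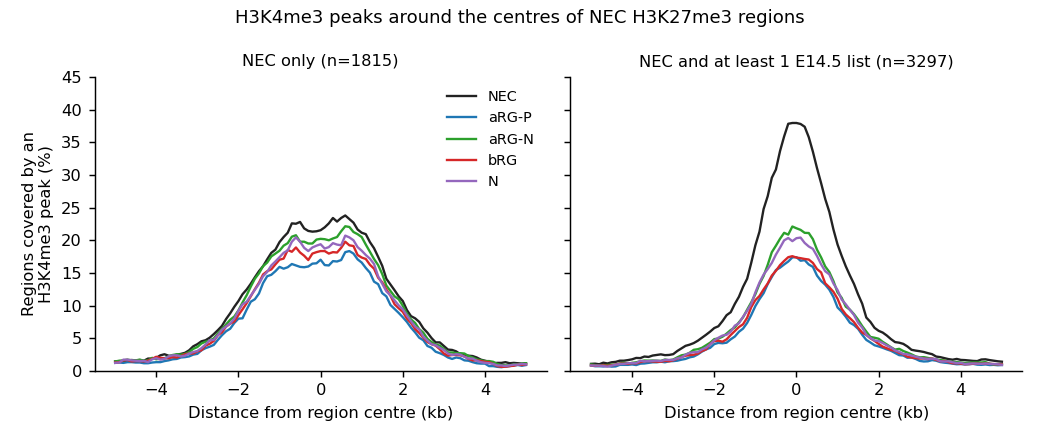
Percent of regions whose position at a given distance from the region centre (x axis, kb) is covered by an H3K4me3 peak of each cell type, for regions of NEC alone (left) and shared NEC regions (right). Lines are the 5 peak lists. Centres of shared regions are those of the joined NEC and E14.5 peaks. NEC H3K4me3 coverage is nearly level within 1 kb of the centre of regions of NEC alone (19.7 to 23.8%) and is highest around the centre of shared ones (38.0%).

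The H3K4me3 peaks at the regions of NEC alone were of middle strength in NEC, and those at shared regions were weaker. Their median fold enrichment in NEC was 18.7, the median of the whole NEC list, against 14.3 at the shared regions. In the E14.5 lists the medians were 9.36 for N, 9.30 for bRG, 12.4 for aRG-N and 10.3 for aRG-P, at percentiles 65.0, 57.6, 53.6 and 62.0 of those lists. At the shared regions the corresponding percentiles were 38.6, 30.9, 30.6 and 36.9. The order was thus the same within each of the 5 lists.

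Of the 6 regions with the highest NEC H3K4me3 fold enrichment, 5 had H3K4me3 in every list. The highest fold enrichment, 47.3 in NEC, was at a region of 292 bp on chromosome 11 from 100181364 to 100181655 that lay wholly inside the H3K4me3 peak. Its values were 10.7 for N, 14.2 for bRG, 16.5 for aRG-N and 13.3 for aRG-P. On chromosome 17 from 45705429 to 45709028 the NEC value was 43.3, and those of N, bRG, aRG-N and aRG-P were 10.5, 18.8, 25.7 and 18.4. There the H3K27me3 region of 3600 bp left out the NEC summit. The next 2, on chromosome 5 from 111847342 to 111849436 (42.9) and chromosome 2 from 31544204 to 31544713 (41.9), were also covered in full by a NEC H3K4me3 peak. Both had H3K4me3 in all 5 lists. So did a region of 296 bp on chromosome 19 from 5801060 to 5801355 (40.9), which had an E14.5 H3K27me3 peak 2.12 kb away.

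NEC H3K4me3 peaks at the regions of NEC alone were found at E14.5 in a larger share than those at other NEC H3K27me3 peaks. Of 832 autosomal NEC H3K4me3 peaks that overlapped a region of NEC alone, 692 (83.2%, 80.5 to 85.7%) overlapped a peak in all 4 E14.5 lists. Among the 3526 at other NEC H3K27me3 peaks the share was 47.2% (45.5 to 48.9%), and among the 12838 without NEC H3K27me3 it was 75.4% (74.6 to 76.1%). The other NEC H3K27me3 peaks had no width limit, unlike the shared regions above. An overlap of 1 bp was enough in both groups, with or without the summit. Counted over regions in place of peaks, H3K4me3 in all 4 E14.5 lists was found at 68.4% (65.1 to 71.7%) of the 792 regions of NEC alone with NEC H3K4me3. The background for that share is 56.7% of all autosomal H3K27me3 regions with NEC H3K4me3. For NEC regions shared with 1 E14.5 H3K27me3 list it was 71.6% (66.9 to 76.1%), and with 2 lists 68.0% (62.4 to 73.2%). With 3 and 4 lists it was 60.1 and 51.3%. Counted over regions, the share was thus not particular to the regions of NEC alone.

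The share found in all 4 E14.5 lists was larger at higher NEC fold enrichment, and the comparison was repeated within ranges of fold enrichment. From 5 to 10 the shares found in all 4 E14.5 lists were 44.7% (36.0 to 53.6%) at regions of NEC alone, 14.6% (12.5 to 16.8%) at other NEC H3K27me3 peaks and 20.5% (18.7 to 22.3%) without NEC H3K27me3. From 10 to 20 they were 88.8% (84.8 to 92.0%), 62.3% (59.8 to 64.8%) and 73.2% (71.4 to 74.9%) in this order. In that range the median H3K4me3 peak width was 998 bp at regions of NEC alone and 1038 bp at other NEC H3K27me3 peaks. Below 5 the intervals overlapped, and from 20 upwards the shares were 99.4, 93.5 and 98.9%. The gap between the 2 kinds of H3K27me3 site was thus widest at fold enrichments of 5 to 10, below the median of 18.7 of the whole NEC list. Regions of NEC alone and other NEC H3K27me3 peaks also differ in H3K27me3 width and score, and the part of these in the gap was not tested.

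**Figure D5:**
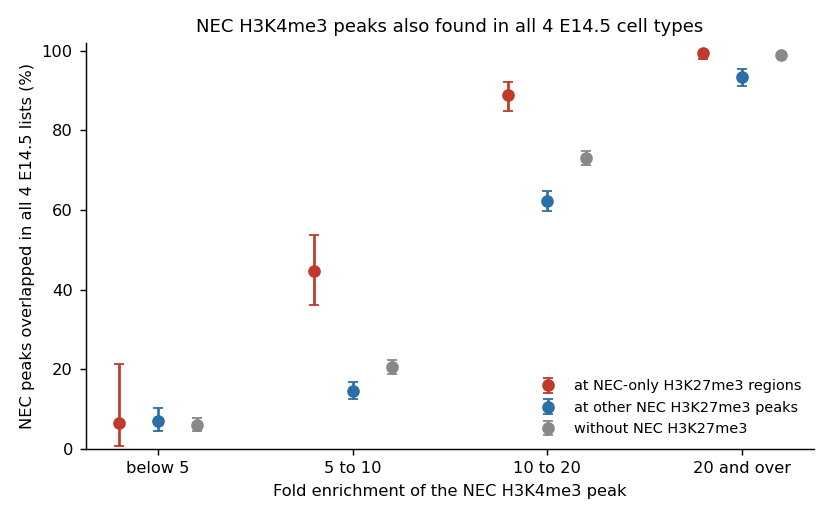
Percent of autosomal NEC H3K4me3 peaks that overlap a peak in all 4 E14.5 H3K4me3 lists, by NEC fold enrichment, for peaks at regions of NEC alone, at other NEC H3K27me3 peaks and without NEC H3K27me3. Points are percentages and bars exact 95% binomial intervals over peaks. The other NEC H3K27me3 peaks have no width limit. At 5 to 10 the 3 values are 44.7, 14.6 and 20.5%.

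H3K4me3 in NEC and in no E14.5 list was recorded at 100 regions (5.51%, background 8.20%). They are 12.6% of the 792 with NEC H3K4me3, where the background is 19.2%. At 55 of them the NEC H3K4me3 peak itself did overlap an E14.5 peak, just outside the region, and at 47 it overlapped peaks of all 4 E14.5 lists. The 6 of the 100 with the highest NEC fold enrichment (30.5 to 41.9) were all of this kind. On chromosome 15 from 100444707 to 100445096, for example, the NEC H3K4me3 peak ran from 100444797 to 100447240, and each E14.5 list had a peak overlapping that span. The other 5 lay at 71960306 to 71960643 of chromosome 9, 96411666 to 96413043 of chromosome 16, 76013567 to 76015216 of chromosome 11, 70920650 to 70922526 of chromosome 14 and 35987299 to 35989116 of chromosome 18.

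At the remaining 45 regions the NEC H3K4me3 peak met no E14.5 peak. These peaks were weak, with fold enrichments of 3.61 to 16.3 and a median of 7.39, and 36 of the 45 regions held the summit. Chosen after their values were seen, the strongest 2 were on chromosome 8 from 97843522 to 97844526 (16.3) and on chromosome 10 from 126943679 to 126952730 (15.1). The second is also the second longest region and the fourth in score, and it held 3 NEC H3K4me3 peaks. An E14.5 H3K27me3 peak lay 8.86 kb from it. Both marks were therefore listed there in NEC and neither in any E14.5 list.

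The opposite case, H3K4me3 at E14.5 and not in NEC, depended on how overlap was counted. At 41 (2.26%, 1.63 to 3.05%, background 0.813%) H3K4me3 was found in at least 1 E14.5 list and not in NEC. With an overlap of at least 50% of the shorter interval the share was 4.96%, above the 2.98% with H3K4me3 in NEC and not at E14.5, so the order of the 2 cases turned. When H3K4me3 within 1 kb counted it was 0.716%, and with H3K4me3 lists of equal length 3.80%. Of the 41, 35 had a NEC H3K4me3 peak within 1 kb. All 4 E14.5 lists had the mark at 6 regions (0.331%, background 0.153%). The one with the highest aRG-N value, on chromosome 8 from 72641800 to 72644203, had fold enrichments of 9.90 for N, 12.9 for bRG, 17.8 for aRG-N and 12.9 for aRG-P. A NEC H3K4me3 peak lay 207 bp from it. A NEC peak was 41 bp from a region on chromosome 12 from 3366209 to 3367144 and 7 bp from one on chromosome 9 from 49604211 to 49604858. It was 107 bp from one on chromosome 12 from 12269827 to 12270250 and 112 bp from one on chromosome 5 from 19414346 to 19414776. None of these 5 was therefore far from H3K4me3 of NEC.

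The remaining region had no NEC H3K4me3 nearby. On chromosome 14 from 66962552 to 66963813, a region of 1262 bp had H3K4me3 in N (9.90), bRG (6.47), aRG-N (6.98) and aRG-P (6.00), and the nearest NEC H3K4me3 peak was 44.9 kb away. Its NEC H3K27me3 score was 16.9 and the nearest E14.5 H3K27me3 peak was 60.9 kb away. It was thus listed with H3K27me3 alone in NEC and with H3K4me3 alone in all 4 E14.5 cell types. Including it, 6 of the 41 regions had no NEC H3K4me3 within 5 kb. The other 5, named after their values were seen, lay at 128904428 to 128904829 of chromosome 4, 91830874 to 91831710 and 122373821 to 122376616 of chromosome 5, 82804726 to 82806072 of chromosome 11 and 82789565 to 82793852 of chromosome 15. The one on chromosome 11 had H3K4me3 in aRG-P, aRG-N and bRG, and each of the other 4 in a single list, with fold enrichments of 4.06 to 6.00.

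The rule excluded overlap with the H3K27me3 of later cells, so distances to it describe the chosen regions. No background distance was computed. The nearest E14.5 H3K27me3 peak was at a median distance of 74.4 kb, and 1546 regions (85.2%) had none within 5 kb. The 269 regions with one nearby carried NEC H3K4me3 in a smaller share, at 25.7% (20.5 to 31.3%) against 46.8% (44.3 to 49.3%) of the rest. Of these 269, 72.1% (66.3 to 77.4%) had no H3K4me3 in any list, against 51.0% (48.4 to 53.5%). Median distances to the separate lists were 182 kb for bRG, 139 kb for aRG-P, 106 kb for N and 103 kb for aRG-N, the reverse of the order of their list lengths.

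Some regions came in groups. When regions at most 100 kb apart were chained, 735 of the 1815 (40.5%) fell into 287 groups and 1080 stood alone. The share in groups was not computed for other H3K27me3 regions, so 40.5% has no background. Of the 1815, 322 (17.7%) had another of these regions within 5 kb. Whether such neighbours are 1 stretch listed as several peaks was not tested. The largest group held 11 regions on chromosome 5 between 132015555 and 132128959, which covered 25.8 of 113 kb. Of these 11, 10 had no H3K4me3 in any list, and no region shared with another cell type lay among them. A group of 9 on chromosome 15 (82733285 to 82866126) had no NEC H3K4me3 within its regions. Its 1 region with H3K4me3 was the one described above with the mark in N alone. Another 9 on chromosome 19 (7129857 to 7260645) had H3K4me3 at 1 region, in all 5 lists.

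The next groups were 8 regions on chromosome 18 (37834667 to 37982423) and 7 on chromosome 4 (64900457 to 64961468). The chromosome 18 group also contained 2 NEC regions that did not qualify, and its regions measured up to 7302 bp. Of these 8, 2 had H3K4me3 in all 5 lists and 6 in none. In the chromosome 4 group the 7 regions covered 14.0 of 61.0 kb, and no H3K4me3 peak of any cell type fell in the whole span. In the 5 largest groups 39 of 44 regions were without H3K4me3, where over all 1815 the share was 54.1%. These 44 are neighbours at 5 places and not independent of each other, and the smaller groups were not compared. The groups were picked for their number of regions, not for H3K4me3.

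No single chromosome accounted for the regions. The regions of NEC alone made up between 29.3% (23.4 to 35.7%, chromosome 15) and 41.0% (34.5 to 47.7%, chromosome 3) of NEC regions under the width limit on each autosome. Counts ran from 49 on chromosome 16 to 159 on chromosome 11. The share with NEC H3K4me3 ranged from 33.3% on chromosome 14 to 59.1% on chromosome 10.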

How the data were processed

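Chromatin of purified mouse neocortical cells was immunoprecipitated for H3K4me3 and H3K27me3 and sequenced. The authors deposited 1 peak list per cell type and mark. Bowtie 1.0.0, MACS2, bedtools and build mm9 are named per the submitters' processing notes, without roles. Per the file headers and peak names, each list was called on combined samples, mostly with duplicates removed. The aRG-P H3K27me3 names say that a set was excluded, those of N that reads were extended by 200 bp, and all track names end in a mention of transcripts, with a 2000 bp window for aRG-P and aRG-N H3K4me3. How far these differences move the overlaps was not tested.

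In the H3K4me3 lists the authors deposited a fold enrichment over background, which is a ratio, and a −log10 q value per peak, in the narrowPeak layout per the file headers. The 3 values per peak that the authors deposited for H3K27me3 are treated as scores. Their meaning is not settled, and only the first was used, to rank peaks within the NEC list and, in 2 alternatives, to cut the lists. Read counts were not used, so depth is unknown.

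Regions were formed in Python 3.11.15 (scipy 1.17.1, pandas 2.3.3, numpy 2.4.6) by joining H3K27me3 peaks that overlap by at least 1 bp. H3K4me3 overlap also needed 1 bp. A region's fold enrichment is that of its strongest H3K4me3 peak. Shares carry exact Clopper-Pearson 95% intervals. The joining and selection steps were tested on simulated data. The members, groupings and measures were chosen with earlier results of these data known. Regions named are the 6 longest, the 6 with the highest NEC H3K4me3 or H3K27me3 values, the 6 that lead each one-sided H3K4me3 pattern, those nearest the 10 kb limit and the 5 largest groups. Exceptions are stated. Control chromatin samples were not analysed here. No genome of build mm9 was used, so no gene names or sequences are given.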

Additional observations from a re-analysis of the deposited data

How the results depend on the processing

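Each alternative changed a single choice, and 42 of 86 alternative values stayed within the exact 95% interval of the value given above, or within 1.5 times of it for the number of regions, while 44 did not. Regions without H3K4me3 outnumbered those with it in all 5 lists except where H3K4me3 within 1000 bp counted and where the H3K27me3 lists were cut to equal length. The number of regions was 732 with the H3K27me3 lists cut to equal length (3476 peaks each over all chromosomes) and 1132 with a common lowest score of 15.8. Other choices gave 1452 to 2094. In the order NEC H3K4me3, H3K4me3 in all 5 lists and H3K4me3 in no list, the shares were 67.3, 50.3 and 29.8% with lists of equal length and 53.7, 37.7 and 43.6% with the common score. They were 50.5, 36.5 and 47.4% with H3K27me3 peaks joined across gaps up to 3 kb, 46.8, 32.6 and 51.0% for regions with no E14.5 H3K27me3 within 5 kb, and 47.3, 32.1 and 50.6% for NEC regions absent from aRG-N and bRG alone. When H3K4me3 overlap had to reach 50% of the shorter interval they were 28.8, 19.4 and 66.2%, and when H3K4me3 within 1000 bp counted they were 61.8, 51.6 and 37.5%. H3K4me3 in NEC and not at E14.5 was then at 2.98 and 3.75% of regions, and H3K4me3 at E14.5 and not in NEC at 4.96 and 0.716%, so that the order of these 2 cases turned under the 50% overlap. With the H3K4me3 lists cut to 14801 peaks these were 4.30 and 3.80%, and NEC H3K4me3 was at 40.6%. Regions with no E14.5 H3K27me3 within 5 kb made up 97.4% after joining across gaps, 93.7% with lists of equal length and 87.5% with the common score. They made up 100% where the rule asked for it, and 73.8% (1546 of 2094) where only absence from aRG-N and bRG was asked for. Regions added by that last setting overlap an aRG-P or N peak, and the distance was still taken to all 4 E14.5 lists. The fall to 73.8% is thus set by the rule. The cause of the other shifts was not tested.

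The following shares were added after seeing the data. NEC H3K4me3 peaks found in all 4 E14.5 lists were 87.8% at regions of NEC alone and 56.2% at other NEC H3K27me3 with H3K4me3 lists of equal length. At other NEC H3K27me3 they were 44.6% with a −log10 q of at least 5 and 44.1% with H3K27me3 lists of equal length. The regions that hold the NEC H3K4me3 summit were 47.2% with H3K4me3 lists of equal length, 58.3% after joining across gaps and 65.5% with H3K27me3 lists of equal length. They were 54.8% with the common score and 56.3% where only absence from aRG-N and bRG was asked for.

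No paired analysis was possible because each list was called on combined samples, and leaving out a replicate could not be run for the same reason. Read depth is unknown, so a peak missing from a list does not show that the mark was absent.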
